A study of Mus musculus with 8 samples.

Results

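The glutathione S-transferases and 3 target genes of the transcription factor NRF2 were followed in livers with and without hepatocyte Bicd2. The 10 genes were taken by symbol from the deposited expression table of 13703 rows, and all 10 were present and expressed above the filter used for testing. They comprise the alpha class transferases Gsta1, Gsta3 and Gsta4, the mu class transferases Gstm1, Gstm2 and Gstm3, the pi class transferase Gstp1, and the NRF2 targets Nqo1, Gclc and Srxn1. They had been chosen with the difference between the genotypes in view, so their own differences are described here with no p-value.

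Glutathione S-transferases join the tripeptide glutathione to reactive electrophiles, which makes drugs, carcinogens and products of lipid peroxidation soluble and ready for export. Hepatocytes hold large amounts of these enzymes. NRF2, encoded by Nfe2l2, is marked for degradation by KEAP1 and the CUL3 ubiquitin ligase, and oxidants or electrophiles release it to bind antioxidant response elements together with small MAF proteins. Nqo1 and several transferases are textbook targets of this system, but transferases also respond to xenobiotic receptors such as CAR and PXR.

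Bulk RNA sequencing was available for 4 liver libraries of Alb-Cre Bicd2fl/fl mice and 4 of Alb-WT Bicd2fl/fl mice. Both genotypes carried loxP-flanked Bicd2, an adaptor of the dynein motor. The albumin promoter drives Cre in hepatocytes, and whole liver does not show whether Bicd2 was also lost in other liver cells. All were given 3 weekly doses of 2.5 mg S-100, a soluble liver extract emulsified with complete Freund's adjuvant, to induce autoimmune hepatitis, and the liver was collected 2 weeks after dosing ended. The sources used here state neither age nor sex, and no liver without the disease model was analysed here. The labels do not say whether libraries came from separate animals, so the spread between libraries may be technical.

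Whole fragment numbers recovered from the deposited FPKM values (fragments normalized for gene length and library size) came to 32524901 to 38893714 per library. Bicd2 was at most 0.732 FPKM in the Alb-Cre libraries and at least 2.46 FPKM in the Alb-WT libraries. Its limma log2 fold change was -1.24 (SE 0.082, adjusted p = 7.25e-05). Unless another scale is named, fold changes here are of log2(FPKM + 1), which understates changes of low genes. Of 11077 genes tested, 939 (8.48%) were called higher and 2582 (23.3%) lower in Alb-Cre. The log2 fold change of the median gene was -0.13. Calls that were lower made up 73.3% of all calls, but 44.7% with median-of-ratios scaling, 48.6% with quantile normalization and 51.8% with the gene length trend removed. These scalings raised the median by 0.14, 0.15 and 0.12 log2 units. Alb-Cre replicate 4 stood apart, with a Pearson correlation across genes of 0.958 to 0.96 with the other Alb-Cre libraries and 0.974 to 0.977 with the Alb-WT libraries. Leaving it out gave 1680 higher (15.2%) and 5088 lower (46.1%) calls. For this reason the members' fold changes and the counts of calls in each gene list are also given without it. For the cell type markers, those whose calls changed without it are named instead of counted.

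The summed level of 8 hepatocyte markers, Alb and Ttr among them, spanned 36500 to 45200 FPKM in Alb-Cre livers, against 42300 to 42800 FPKM in Alb-WT livers, with the lowest sum in Alb-Cre replicate 4. Of these markers 0 were called higher and 1, Tat, lower. Without replicate 4, Alb, Ttr and Serpina1c were called higher (limma adjusted p = 0.00519, 0.00138 and 6.51e-06). Apoa1, Fga, Tat and Hnf4a were then called lower (7.18e-06 to 0.0205) and Cps1 did not pass (0.619). In that fit 15.2% of all genes were called higher and 46.1% lower. Replicate 4 was the lowest library for each hepatocyte marker except Fga and Tat. For Fga it was the highest of all (6281 FPKM), and for Tat the highest of Alb-Cre (994.6 FPKM). All 8 macrophage markers were called lower, and their sum was 140 to 151 FPKM in Alb-Cre replicates 1 to 3, 445 FPKM in replicate 4 and 507 to 539 FPKM in Alb-WT. In replicate 4 Marco (125.4 FPKM) and Cd68 (35.55 FPKM) lay above every Alb-WT library, and the other macrophage markers below every one. The 3 neutrophil markers in the table, of 8 listed, summed to 6.36 to 6.71 FPKM in Alb-Cre replicates 1 to 3, 80.5 FPKM in replicate 4 and 251 to 317 FPKM in Alb-WT. Among cholangiocyte markers 5 of 5 tested were lower (sums of 40.6 to 66 FPKM in Alb-Cre livers, against 85 to 98.1 FPKM in Alb-WT livers), among stellate and fibroblast markers 3 of 8 (34.2 to 47.8 FPKM in Alb-Cre livers, against 57.9 to 61.4 FPKM in Alb-WT livers) and among sinusoidal endothelial markers 2 of 8 (35.1 to 50.8 FPKM in Alb-Cre livers, against 47 to 49.1 FPKM in Alb-WT livers). Without replicate 4, the endothelial markers Clec4g and Oit3 were called higher (limma adjusted p = 0.000174 and 0.00277) and Pecam1 lower (0.0286). The stellate and fibroblast markers Lrat (0.0193) and Pdgfrb (8.97e-06) were then also called lower. The part of these cell types in the values below was not tested. In whole liver, fewer cells of a type and less RNA per cell cannot be told apart.

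Among the members, Gsta1, Gsta4, Gstm2 and Gstm3, 4 of the transferases, had no overlap between genotypes and were higher in Alb-Cre. These are the less abundant transferases of the set. The abundant Gstm1 and Gstp1 lay at about the same mean level in both genotypes, and Gsta3 differed in direction between Alb-Cre libraries. None of the 3 NRF2 targets was higher across the Alb-Cre libraries. In the whole-table fit 4 of the 10 members were called higher and 0 lower, beside 8.48% and 23.3% of all genes, or 31.8% in either direction. Leaving out Alb-Cre replicate 4 made these counts 5 and 2, beside 15.2% and 46.1% of all genes. The groups did not overlap for 4 members that were higher and 1, Gclc, that was lower, beside 9.27% and 21.4% of all genes. These counts describe members chosen on the same difference and are read no further.

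**Figure D1:**
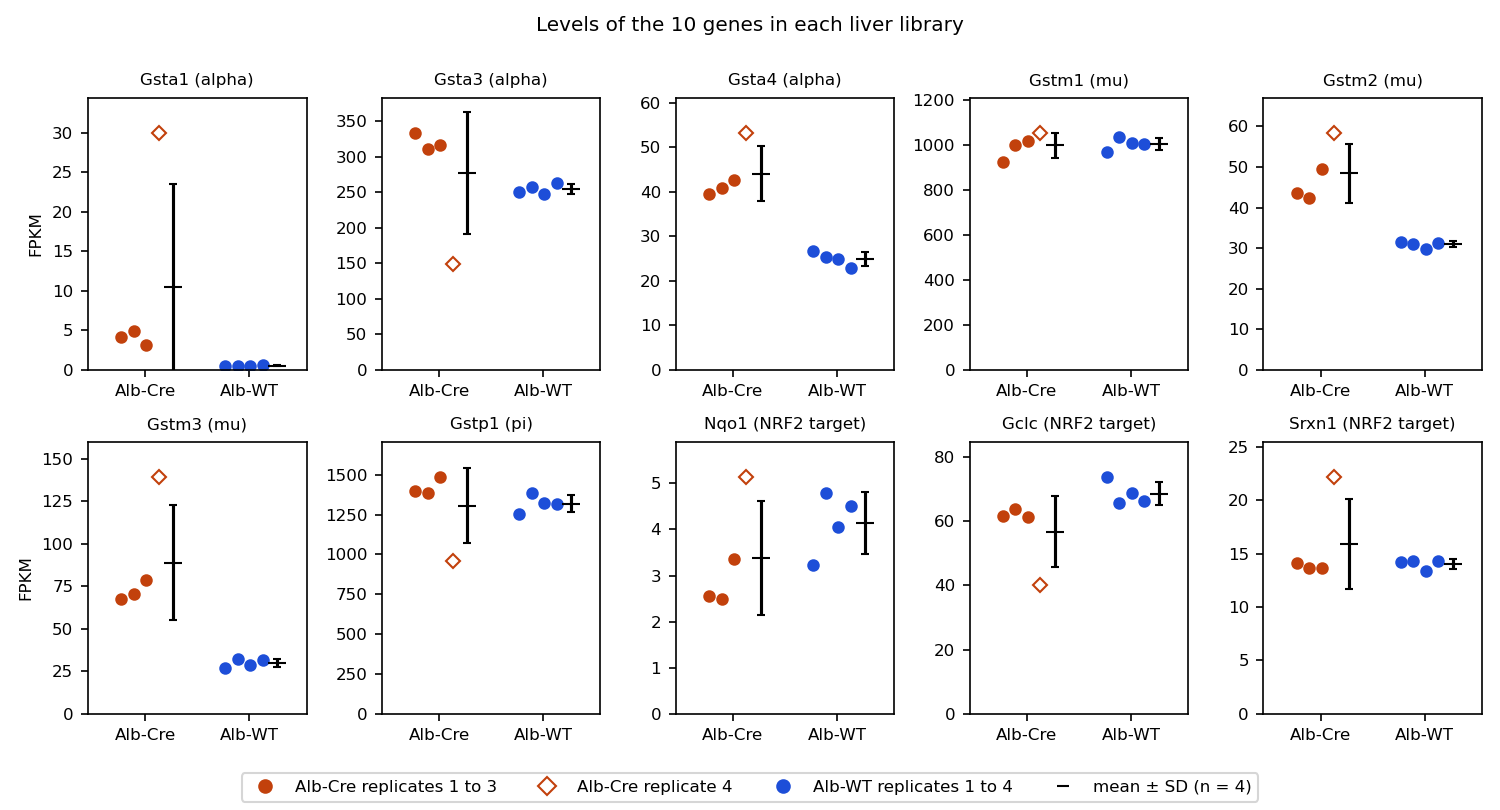
FPKM of each of the 10 genes (vertical axes, linear and from 0) in the 4 Alb-Cre libraries, left, and the 4 Alb-WT libraries, right. Points are libraries, the open diamond is Alb-Cre replicate 4, and the black mark is the mean ± SD of 4 libraries, whose bar is cut at 0 for Gsta1. Gsta1, Gsta4, Gstm2 and Gstm3 lie above every Alb-WT library in all 4 Alb-Cre libraries, and replicate 4 is far from the others for Gsta1, Gsta3, Gstm3, Gclc and Srxn1.

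Gsta1, an alpha class transferase that is low in unchallenged mouse liver and inducible, showed the widest difference of the set. Its level was 4.18, 4.87, 3.1 and 29.9 FPKM in Alb-Cre replicates 1 to 4, against 0.499, 0.484, 0.503 and 0.565 FPKM in Alb-WT replicates 1 to 4. The groups were far apart, but 1 Alb-Cre library held most of the signal, 7.38 times the mean of the other Alb-Cre libraries. The FPKM ratio of the means was 20.5 with all libraries and 7.90 without replicate 4. On the log2(FPKM + 1) scale, which understates changes of low genes, the fold change was 2.38 (SE 0.55), and 1.72 (SE 0.107) without replicate 4. The values rest on few fragments in Alb-WT, 16, 18, 16 and 20, against 131, 156, 106 and 1120 in Alb-Cre.

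Gsta1 has near-identical neighbours. Of all stretches of 50 bases in its longest GENCODE M21 transcript, 89.7% also occur in transcripts of other genes, chiefly Gm3776 and Gsta2, and 81.8% of stretches of 100 bases do. Reads could therefore be split or moved between these copies, and the level of Gsta1 alone is uncertain. The copies, which are named here after their values were seen, were also higher in Alb-Cre. Gm3776 had 2.65, 2.97, 3.78 and 21.4 FPKM in Alb-Cre, against 1.02, 0.765, 0.275 and 0.401 FPKM in Alb-WT (limma log2 fold change 1.98, SE 0.525, adjusted p = 0.0233). Gsta2 had 13, 10.2, 8.55 and 25.5 FPKM in Alb-Cre, against 6.61, 5.18, 5.9 and 5.04 FPKM in Alb-WT (log2 fold change 1.08, SE 0.278, limma adjusted p = 0.021). Replicate 4 was the highest Alb-Cre library for Gsta1, Gm3776 and Gsta2 alike. Without it the limma adjusted p was 3.14e-05 for Gm3776 and 0.000348 for Gsta2. The call for Gm3776 was lost without any single Alb-WT library (adjusted p = 0.0504 to 0.0659), and that for Gsta2 without Alb-Cre replicate 1 (0.0535) or Alb-WT replicate 2 (0.055), 3 (0.0536) or 4 (0.0552).

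The likeness of Gsta1 and Gm3776 extends upstream of the genes. Over the 250 bases before their annotated starts in RefSeq (build GRCm38.p6), 236 of 263 alignment columns were identical, or 89.7%. For Gsta1 and Gsta2 the share was 71.4%, 190 of 266 columns. Gaps count as differences in these shares, so the offset between annotated starts lowers that of Gsta1 and Gm3776. The last 110 bases before each start, at chr9:78230559-78230668 for Gsta1 and chr9:78257019-78257128 for Gm3776, both on the plus strand, are shown because the 2 genes share this run with an offset between their annotated starts.
Gsta1: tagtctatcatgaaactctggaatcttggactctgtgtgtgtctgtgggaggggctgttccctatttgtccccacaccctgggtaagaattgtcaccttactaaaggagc
Gm3776: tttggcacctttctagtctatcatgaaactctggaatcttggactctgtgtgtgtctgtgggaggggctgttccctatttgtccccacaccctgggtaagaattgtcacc

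Gsta4, which acts on reactive aldehydes from lipid peroxidation, shares no stretch of 50 bases with another gene, so its values stand alone. It had 39.6, 41, 42.7 and 53.2 FPKM in Alb-Cre, against 26.7, 25.4, 24.8 and 22.9 FPKM in Alb-WT. All Alb-Cre libraries were higher, with a ratio of 1.77 and a log2 fold change of 0.79 (SE 0.098), or 0.70 (SE 0.058) without replicate 4. Gsta3, the major alpha class enzyme of these libraries, which protects mouse liver from aflatoxin, had 333, 311, 316 and 149 FPKM in Alb-Cre, against 250, 257, 247 and 263 FPKM in Alb-WT. Alb-Cre replicates 1 to 3 lay above every Alb-WT library and replicate 4 below every one. The log2 fold change of Gsta3 was accordingly 0.06 (SE 0.234) with all libraries and 0.33 (SE 0.043) without replicate 4. It turned to -0.06, -0.02 and -0.03 without Alb-Cre replicate 1, 2 or 3. Rescaling to a common FPKM sum (-0.03) and quantile normalization (-0.02) also turned its sign.

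The mu class behaved unevenly. Gstm3 had 67.7, 70.3, 78.7 and 139 FPKM in Alb-Cre, against 27.2, 32.3, 28.9 and 31.5 FPKM in Alb-WT, so that all Alb-Cre libraries were higher and replicate 4 the highest. Its ratio was 2.96 and its log2 fold change 1.47 (SE 0.208), or 1.24 (SE 0.071) without replicate 4. Gstm2 had 43.6, 42.2, 49.4 and 58.3 FPKM in Alb-Cre, against 31.6, 31.1, 29.9 and 31.2 FPKM in Alb-WT. These groups did not overlap either, and the log2 fold change was 0.62 (SE 0.099), or 0.53 (SE 0.058) without replicate 4. Gstm1, the most abundant mu class transcript here, had 924, 1003, 1021 and 1054 FPKM in Alb-Cre, against 970.7, 1038, 1010 and 1004 FPKM in Alb-WT. The Gstm1 groups overlapped, with a log2 fold change of -0.01 (SE 0.077), or -0.03 (SE 0.046) without Alb-Cre replicate 4. It became 0.03 without Alb-Cre replicate 1, 0.01 without Alb-WT replicate 2 and 0.19 with median-of-ratios scaling. Gstm3 was above Gstm2 in every Alb-Cre library, while the levels of these genes overlapped in Alb-WT livers. Stretches of 100 bases shared with other genes made up 7.7% of the longest Gstm1 transcript, 0.6% of Gstm2 and 13.8% of Gstm3.

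Gstp1, the pi class enzyme, was the most abundant member on average in both genotypes. It had 1398, 1383, 1484 and 960 FPKM in Alb-Cre, against 1254, 1383, 1322 and 1318 FPKM in Alb-WT. Replicate 4 was the lowest of all 8 libraries and the other Alb-Cre libraries reached or passed the top of the Alb-WT range. The log2 fold change was -0.03 (SE 0.139), and 0.11 (SE 0.046) without replicate 4 and 0.16 with median-of-ratios scaling. Gstp1 shares 52.8% of its stretches of 100 bases with its neighbour Gstp2 or the pseudogene Gstp-ps, so that its reads may be divided too.

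**Figure D2:**
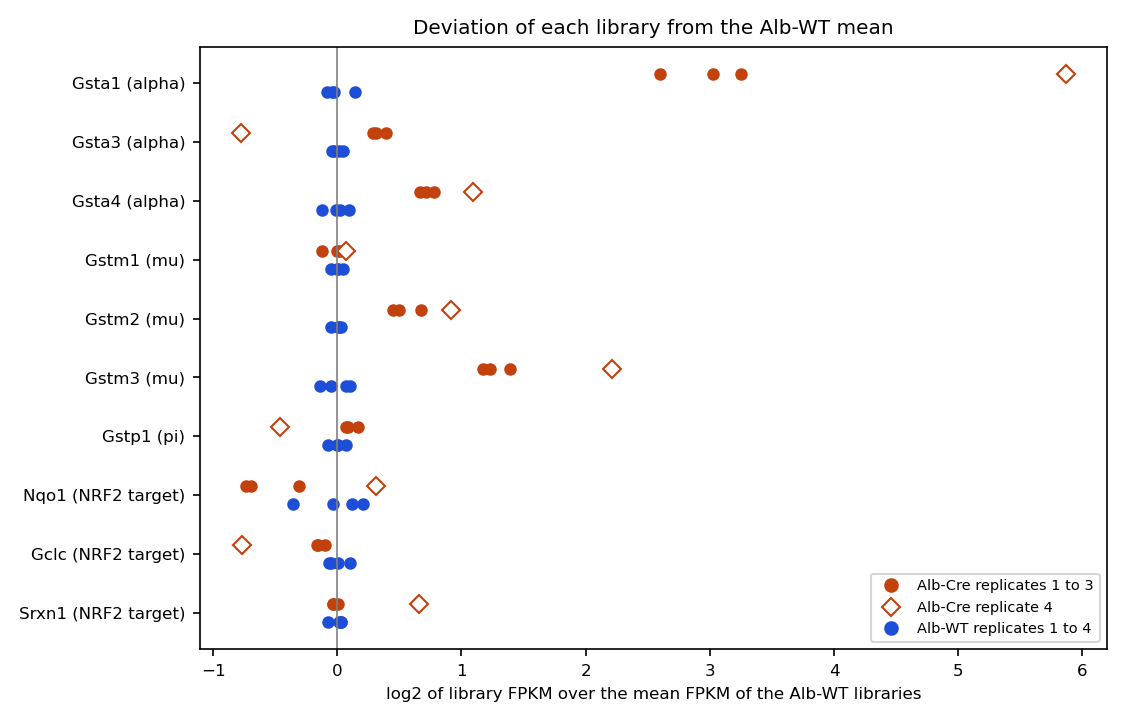
Each library's FPKM divided by the mean FPKM of the Alb-WT libraries, on a log2 axis, for the 10 genes (rows). Upper, orange points of a row are Alb-Cre libraries, with replicate 4 as an open diamond, and lower, blue points are Alb-WT libraries. Replicate 4 is the most raised library for Gsta1 and Gstm3 and the lowest for Gsta3, Gstp1 and Gclc.

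The 3 NRF2 targets did not move as a block. Nqo1, a quinone reductase that serves as the usual readout of NRF2, had 2.55, 2.48, 3.35 and 5.13 FPKM in Alb-Cre, against 3.23, 4.79, 4.04 and 4.5 FPKM in Alb-WT. Replicates 1 and 2 lay below every Alb-WT library and replicate 4 above every one. The log2 fold change of Nqo1 was -0.26 (SE 0.184), or -0.44 (SE 0.116) without replicate 4, from 129 to 312 fragments per library. Gclc, the catalytic subunit of glutamate-cysteine ligase, which limits glutathione synthesis, had 61.6, 64, 61.3 and 40.2 FPKM in Alb-Cre, against 73.7, 65.7, 68.8 and 66.2 FPKM in Alb-WT. All 4 Alb-Cre libraries were lower, by a log2 fold change of -0.29 (SE 0.14) with replicate 4 and -0.14 (SE 0.051) without it. Srxn1, which encodes sulfiredoxin and restores over-oxidized peroxiredoxins, had 14.1, 13.7, 13.7 and 22.2 FPKM in Alb-Cre, against 14.2, 14.3, 13.4 and 14.3 FPKM in Alb-WT. Only replicate 4 left the Alb-WT range upward, and the log2 fold change of 0.14 (SE 0.143) became -0.02 (SE 0.049) without it.

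Within Alb-Cre, replicate 4 thus split the members. It was above the mean of replicates 1 to 3 for Gsta1 (7.38 times), Gstm3 (1.93), Nqo1 (1.84), Srxn1 (1.6), Gsta4 (1.29), Gstm2 (1.29) and Gstm1 (1.07). It was below that mean for Gstp1 (0.675 times), Gclc (0.646) and Gsta3 (0.464). The same library carried macrophage and neutrophil marker sums nearer to Alb-WT and the lowest hepatocyte marker sum, though single markers differed, as given above.

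By mean level the members ran in Alb-Cre from Gstp1 (1306 FPKM) through Gstm1 (1001), Gsta3 (277), Gstm3 (89), Gclc (56.8), Gstm2 (48.4), Gsta4 (44.1), Srxn1 (15.9) and Gsta1 (10.5) to Nqo1 (3.38 FPKM). Ranges of neighbours overlapped there between Gstp1 and Gstm1, Gclc and Gstm2, Gstm2 and Gsta4, Srxn1 and Gsta1, and Gsta1 and Nqo1. In Alb-WT the order was Gstp1 (1319 FPKM), Gstm1 (1006), Gsta3 (254), Gclc (68.6), Gstm2 (30.9), Gstm3 (30), Gsta4 (24.9), Srxn1 (14), Nqo1 (4.14) and Gsta1 (0.513 FPKM), and of neighbours Gstm2 and Gstm3 alone had overlapping ranges. Gstm3 thus stood above Gclc, and Gsta1 above Nqo1, by mean in Alb-Cre and not in Alb-WT.

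Summed over the 7 member transferases, FPKM were 2810, 2855, 2995 and 2444 in Alb-Cre, against 2560, 2767, 2663 and 2671 in Alb-WT. These sums overlapped, since Gstp1, Gstm1 and Gsta3 made up most of them. The other 4 members together gave 155, 158, 174 and 281 FPKM in Alb-Cre, against 86, 89.2, 84.1 and 86.2 FPKM in Alb-WT. As a share of all 22 soluble transferases in the table, Gstp1 took 42.1%, 41.4%, 42.3% and 33.4% in Alb-Cre, against 43.1%, 44.2%, 43.8% and 43.4% in Alb-WT. Gstm3 took 2.04%, 2.1%, 2.24% and 4.84% in Alb-Cre, against 0.937% to 1.04% in Alb-WT.

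The rest of the transferase family, none of it among the 10 members, was mostly higher in Alb-Cre livers and none of the tested genes was called lower. Gm3776 and Gsta2 are counted here although they share sequence with the member Gsta1, so their calls are not independent of it. Of 23 listed genes 18 were in the table and 16 were tested. Of these 11 rose, 0 fell and 5 did not pass (limma, adjusted p under 0.05), beside 8.48% higher and 23.3% lower over all genes. Their median log2 fold change was 0.60, beside -0.13 over all genes. The count of genes that rose was 14 without replicate 4, beside 15.2% of all genes in that fit, and 9 to 11 without any other single library. Among the tested genes, values of 11 did not overlap, all with Alb-Cre higher, beside 9.27% of all genes. Mgst2 and Hpgds, below the filter and named after their values were seen, were lower by mean in Alb-Cre. Mgst2 had 0.0467 FPKM there against 0.189 FPKM in Alb-WT, with no overlap, from 2 to 36 fragments per library. Hpgds had 0.341 against 0.631 FPKM, with overlap. With each of the other scalings 11 rose and 0 fell, while 623 to 1872 of all 11077 genes were called higher.

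The theta class, which acts on small halogenated compounds, gave the clearest differences. Gstt2 had 9.18, 6.81, 8.69 and 7.09 FPKM in Alb-Cre, against 2.69, 2.61, 2.67 and 2.53 FPKM in Alb-WT (log2 fold change 1.29, SE 0.095, limma adjusted p = 0.000115). Gstt1 had 111, 101, 108 and 92.6 FPKM in Alb-Cre, against 63, 69.4, 67.3 and 67.6 FPKM in Alb-WT (log2 fold change 0.61, SE 0.073, limma adjusted p = 0.000986). Gstt3 had 4.38 to 6.15 FPKM in Alb-Cre, against 2 to 2.88 FPKM in Alb-WT. It rose by 0.90 on the log2(FPKM + 1) scale (SE 0.114, limma adjusted p = 0.00132). In all 3 theta genes replicate 4 was close to the other Alb-Cre libraries and no value overlapped between groups.

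The membrane-bound Mgst3 had 13.2, 13.7, 14.8 and 10.9 FPKM in Alb-Cre, against 6.85, 8.6, 7.64 and 7.87 FPKM in Alb-WT (log2 fold change 0.69, SE 0.1, limma adjusted p = 0.00241). Mgst1, the microsomal transferase, named here after its values were seen, was 1951 ± 188 FPKM in Alb-Cre and 1298 ± 60 FPKM in Alb-WT (SD, n = 4). Its log2 fold change was 0.58 (SE 0.097, limma adjusted p = 0.00427). Its mean exceeded that of every soluble transferase in Alb-Cre. Gstp3 and Gstm4, likewise named afterwards, rose by 0.97 (SE 0.154, limma adjusted p = 0.0036) and 0.89 (SE 0.203, limma adjusted p = 0.0141). Gstm4 was at 46.3, 42.6 and 45.8 FPKM in Alb-Cre replicates 1 to 3 and at 23.1 FPKM in replicate 4, against 18.3 to 21.9 FPKM in Alb-WT, so replicate 4 was only just above the Alb-WT range, and without it the log2 fold change was 1.13 (SE 0.065).

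**Figure D3:**
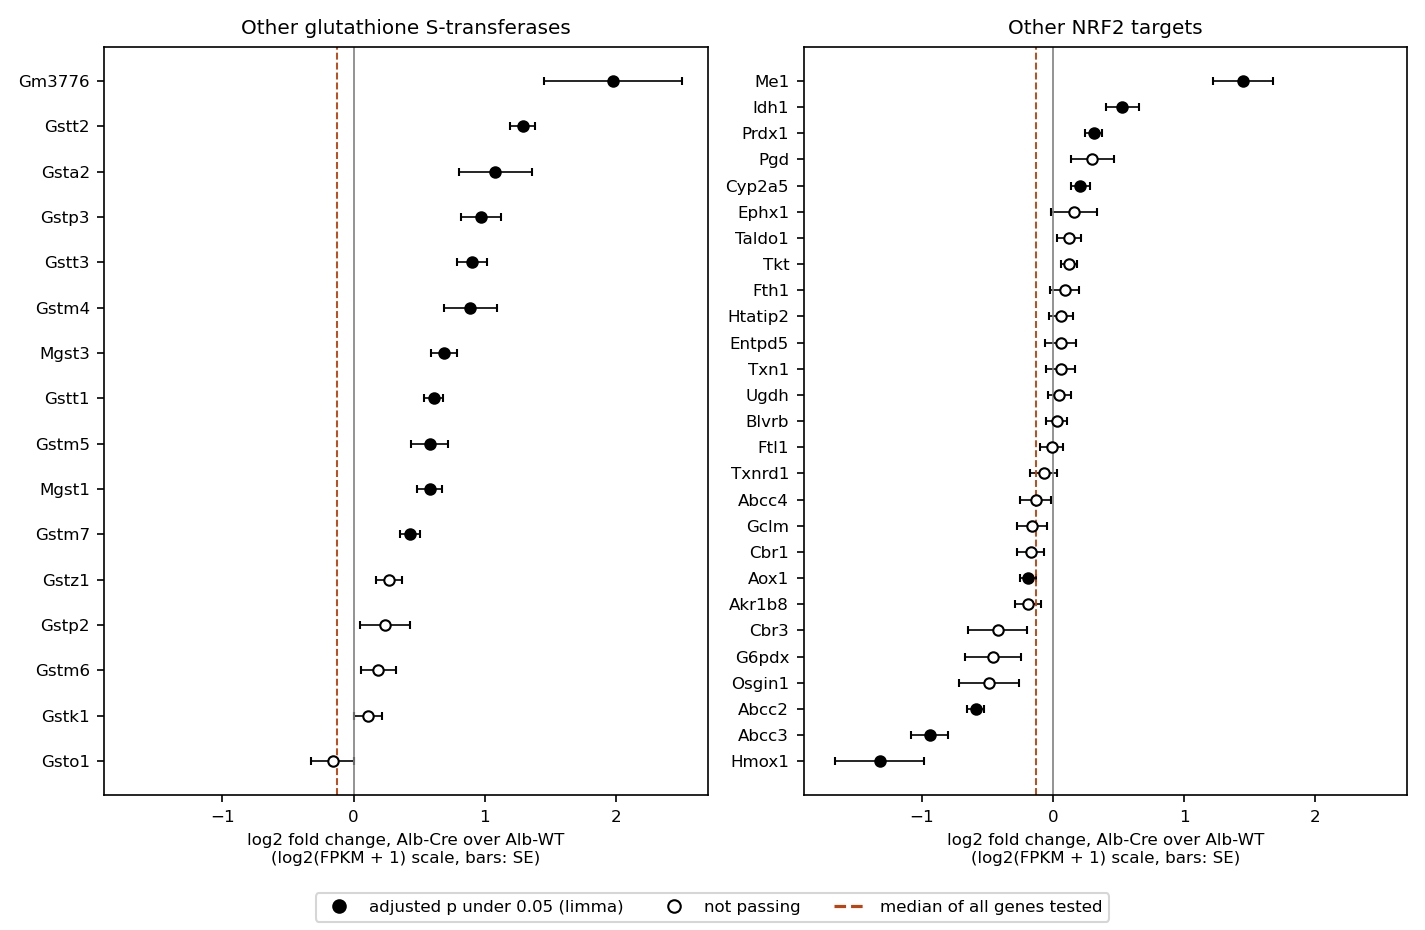
Log2 fold change of Alb-Cre over Alb-WT with its SE for the 16 other transferases tested (left) and the 27 other NRF2 targets tested (right). Filled points passed an adjusted p of 0.05 in limma and the dashed line is the median of all genes, at -0.13. On the left 11 genes pass, all to the right of 0, while on the right 4 pass on each side.

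Other NRF2 targets were called about as often as genes in general. Of 27 tested, 4 rose, 4 fell and 19 did not pass, beside 8.48% higher and 23.3% lower over all genes. Their median log2 fold change was 0.03, beside -0.13. Without replicate 4 the counts were 6 and 9, beside 15.2% higher and 46.1% lower over all genes in that fit. Without any other single library 2 or 3 rose and 2 fell. With median-of-ratios scaling 8 rose and 3 fell, beside 1872 higher and 1516 lower of all 11077 genes under that scaling. Gclm, the modifier subunit that pairs with Gclc (log2 fold change -0.16, limma adjusted p = 0.28), and Txnrd1, the cytosolic thioredoxin reductase (-0.07, 0.591), were picked after their values were seen and did not pass. Txnrd1 was called lower without replicate 4 (log2 fold change -0.17, limma adjusted p = 0.0237).

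The 4 NRF2 targets that rose were Me1, Idh1, Prdx1 and Cyp2a5. Me1 and Idh1 encode enzymes that make NADPH, and Me1 also belongs to fatty acid synthesis. Me1 had 55.7, 62.6, 55.9 and 27.6 FPKM in Alb-Cre, against 15.6, 16.4, 19.6 and 16.7 FPKM in Alb-WT (log2 fold change 1.45, SE 0.229, limma adjusted p = 0.00352). Replicate 4 was the lowest Alb-Cre library for Me1, and the log2 fold change was 1.71 (SE 0.076) without it. Idh1 rose by 0.53 (limma adjusted p = 0.0181), a call lost without Alb-Cre replicate 1 (0.0548) or 3 (0.0553) or Alb-WT replicate 1 (0.0503). The peroxiredoxin gene Prdx1 rose by 0.31 (limma adjusted p = 0.0119, and 0.0517 with quantile normalization). Cyp2a5, a coumarin hydroxylase, rose by 0.21 (limma adjusted p = 0.0449), which no longer passed without any single library other than Alb-Cre replicate 4 (0.0843 to 0.117). Nor did it pass with a common FPKM sum (0.121), quantile normalization (0.33) or the gene length trend removed (0.103).

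The 4 that fell were Hmox1, Abcc3, Abcc2 and Aox1. Hmox1, heme oxygenase, had 9.86, 9.28, 9.25 and 31.5 FPKM in Alb-Cre, against 32.5, 34.9, 33.8 and 33.6 FPKM in Alb-WT (log2 fold change -1.32, SE 0.34, limma adjusted p = 0.0213). In replicate 4 Hmox1 thus lay nearer to Alb-WT than in the other Alb-Cre libraries, as the macrophage marker sum did. A link between Hmox1 and macrophage content was not tested. The limma adjusted p of Hmox1 was 1.49e-09 without replicate 4 and 0.0515 to 0.0627 without any other single library. The conjugate exporter genes Abcc3 and Abcc2 fell by 0.94 (SE 0.142, limma adjusted p = 0.00285) and 0.59 (SE 0.063, limma adjusted p = 0.000568). ABCC2 carries glutathione conjugates across the canalicular membrane into bile and ABCC3 exports across the basolateral membrane. Aox1, an aldehyde oxidase, fell by 0.19 (limma adjusted p = 0.0475), which passed without Alb-Cre replicate 4 (0.0287) but not without any other single library (0.0578 to 0.124), and had an adjusted p of 0.91, 0.43 and 0.979 with median-of-ratios scaling, quantile normalization and the gene length trend removed.

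Of 11 genes for NRF2 and its control 0 rose, 2 fell and 9 did not pass, beside 8.48% higher and 23.3% lower over all genes. Their median log2 fold change of -0.14 was close to the -0.13 of all genes. With median-of-ratios scaling 1 rose and 1 fell, beside 1872 and 1516 of all 11077 genes. With the gene length trend removed 1 rose and 2 fell, beside 1399 and 1504 of all genes. Nfe2l2 had 11.9, 12.9, 11.8 and 13.2 FPKM in Alb-Cre, against 16.3, 15.2, 16.6 and 16.3 FPKM in Alb-WT (log2 fold change -0.35, SE 0.063, limma adjusted p = 0.00596), with replicate 4 just above the other Alb-Cre libraries and below all of Alb-WT. Median-of-ratios scaling left this at an adjusted p of 0.0924. Bach1, a repressor at the same DNA sites, had 4.9, 4.41, 4.65 and 6.67 FPKM in Alb-Cre, against 6.95, 8.27, 7.81 and 6.87 FPKM in Alb-WT (log2 fold change -0.47, SE 0.116, limma adjusted p = 0.0185). That call was lost without Alb-Cre replicate 1 (0.0533) or 3 (0.0566) and without Alb-WT replicate 2 (0.0535) or 3 (0.0558). Keap1 had a log2 fold change of -0.05 (SE 0.09, limma adjusted p = 0.668). Without replicate 4, 6 of the 11 genes were called lower, beside 46.1% of all genes in that fit. The count was 1 without Alb-Cre replicate 1 or 3 or Alb-WT replicate 2 or 3. These are transcript levels, whereas NRF2 is controlled mainly through the stability of its protein.

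Genes that make, recycle or use glutathione also lay near the level of all genes. Of 17 tested, 3 rose, 3 fell and 11 did not pass, beside 8.48% higher and 23.3% lower over all genes. Their median log2 fold change was -0.12, beside -0.13. Slc25a39, needed for glutathione import into mitochondria, rose by 0.36 (limma adjusted p = 0.00689), the peroxidase gene Gpx1 by 0.52 (0.0204) and the S-formylglutathione hydrolase gene Esd by 0.26 (0.0157). Cbs and Cth, which lead from homocysteine to cysteine, fell by 0.34 (limma adjusted p = 0.00692) and 0.60 (0.0368), and the secreted peroxidase gene Gpx3 fell by 0.41 (0.0186). The call for Cbs was lost with median-of-ratios scaling (0.22) and the gene length trend removed (0.134), as was that for Cth (0.23 and 0.0931). With median-of-ratios scaling the list had 4 higher and 0 lower calls, beside 1872 and 1516 of all 11077 genes. Without any single library except Alb-Cre replicates 2 and 4, Cth did not pass (0.0536 to 0.09). Gpx1 did not pass without Alb-Cre replicate 1 (0.0599) or 3 (0.06) or Alb-WT replicate 1 (0.0542), 2 (0.0574) or 3 (0.0541), Gpx3 without Alb-Cre replicate 1 (0.0534) or Alb-WT replicate 1 (0.0511) or with median-of-ratios scaling (0.0941), and Esd without Alb-Cre replicate 1 (0.0502) or Alb-WT replicate 1 (0.0503), with a common FPKM sum (0.0566) or with quantile normalization (0.156). The list gave 6 higher and 8 lower calls without replicate 4, beside 15.2% and 46.1% of all genes in that fit. It gave 1 of each without Alb-Cre replicate 1 or Alb-WT replicate 1.

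Of 12 xenobiotic receptor genes and P450 targets tested, 1 rose, 3 fell and 8 did not pass, close to the 8.48% higher and 23.3% lower over all genes. Their median log2 fold change was -0.18, beside -0.13. Cyp2b10, the usual readout of the receptor CAR, had 1.13, 2.01, 1.84 and 2.18 FPKM in Alb-Cre, against 14.1, 12.5, 12.7 and 11.2 FPKM in Alb-WT (log2 fold change -2.30, SE 0.129, limma adjusted p = 4.03e-05). Replicate 4 lay with its group here. Nr1i3, which encodes CAR, had 1.71 to 2.21 FPKM in Alb-Cre, against 3.46 to 4.3 FPKM in Alb-WT. It fell by 0.74 (limma adjusted p = 0.000759) and Cyp3a13 by 0.46 (0.00147, and 0.0717 with median-of-ratios scaling). Nr1i2, which encodes PXR, rose by 0.20 (limma adjusted p = 0.0499), a call that was lost without any single library other than Alb-Cre replicate 4 (0.0629 to 0.132). Its groups overlapped, and 4 of 17 alternative settings kept the call. Without replicate 4, 3 genes of this list were called higher and 6 lower, beside 15.2% and 46.1% of all genes in that fit.

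Promoter sequences, 250 bases before to 50 after an annotated start, were matched in RefSeq (GRCm38.p6) by symbol for 8 of the 10 members, in 9 windows. Gsta4 and Gclc had none. They were searched on both strands for TGACNNNGC and TGAGNNNGC, letters of the antioxidant response element core, which can overlap each other. Of 32851 windows of all genes 12.4% held the first, 17.6% the second and 27.8% either. Gsta3, Gstp1 and Srxn1 held a match, and Gsta1, Gstm1, Gstm2, Gstm3 and Nqo1 held none within this window, which says nothing of sites farther away. Gsta3 held 1 match, Gstp1 2 and Srxn1 3. A stretch with 1 match each from Gsta3, Gstp1 and Srxn1, and the corresponding stretch of Gstp2, are shown with that match in capitals, 60 bases each, 5′ to 3′ on the gene's strand. They lie at chr1:21240438-21240497 (plus), chr19:4037953-4038012 (minus), chr2:152105453-152105512 (plus) and chr19:4042277-4042336 (minus).
Gsta3: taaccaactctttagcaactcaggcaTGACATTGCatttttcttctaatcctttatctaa
Gstp1: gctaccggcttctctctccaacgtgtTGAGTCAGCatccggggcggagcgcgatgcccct
Srxn1: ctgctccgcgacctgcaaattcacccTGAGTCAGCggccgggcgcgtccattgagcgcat
Gstp2: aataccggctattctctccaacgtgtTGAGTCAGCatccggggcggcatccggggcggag
The same letters, TGAGTCAGC, stand in Gstp1, Gstp2 and Srxn1, starting 74, 89 and 45 bases before the start. The matches not shown begin at -9 in Gstp1 and at -158 and 28 in Srxn1, counted from the start, and all 3 are on the opposite strand. In Alb-Cre replicate 4 Gstp1 was lowest of all libraries, while Srxn1 and Gstp2 were highest. Gstp2, named after its values were seen, had 8.16, 9.15, 13.3 and 16.9 FPKM in Alb-Cre, against 9.3, 10.3, 8.8 and 9.8 FPKM in Alb-WT (log2 fold change 0.24, SE 0.193, limma adjusted p = 0.358), and it shares sequence with Gstp1.

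The genes whose levels followed Gsta1 most closely over the 8 libraries, among 9592 genes whose mean reached 1 FPKM, were Xbp1 (Pearson r = 0.997), Serp1 (0.996), Cyp4a14 (0.993), Ssr3 (0.993) and Srpr (0.992). Xbp1 had 77, 81.9, 76 and 125 FPKM in Alb-Cre, against 58.2, 55.1, 58.1 and 56.3 FPKM in Alb-WT, so it shared with Gsta1 both the genotype difference and the excess in replicate 4. Of the members, Gstm3 (0.961), Gstm2 (0.933) and Gsta4 (0.93) were most like Gsta1, and Gclc was the most unlike (-0.921). Nqo1 was followed most closely by Gm22270 (0.991), the carbonyl reductase gene Cbr1 (0.991), Marchf5 (0.978), Gdpd1 (0.975) and Smg9 (0.974), and its correlation with Gsta1 was 0.02. These correlations describe 8 libraries that share 2 genotypes and 1 divergent library.

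**Figure D4:**
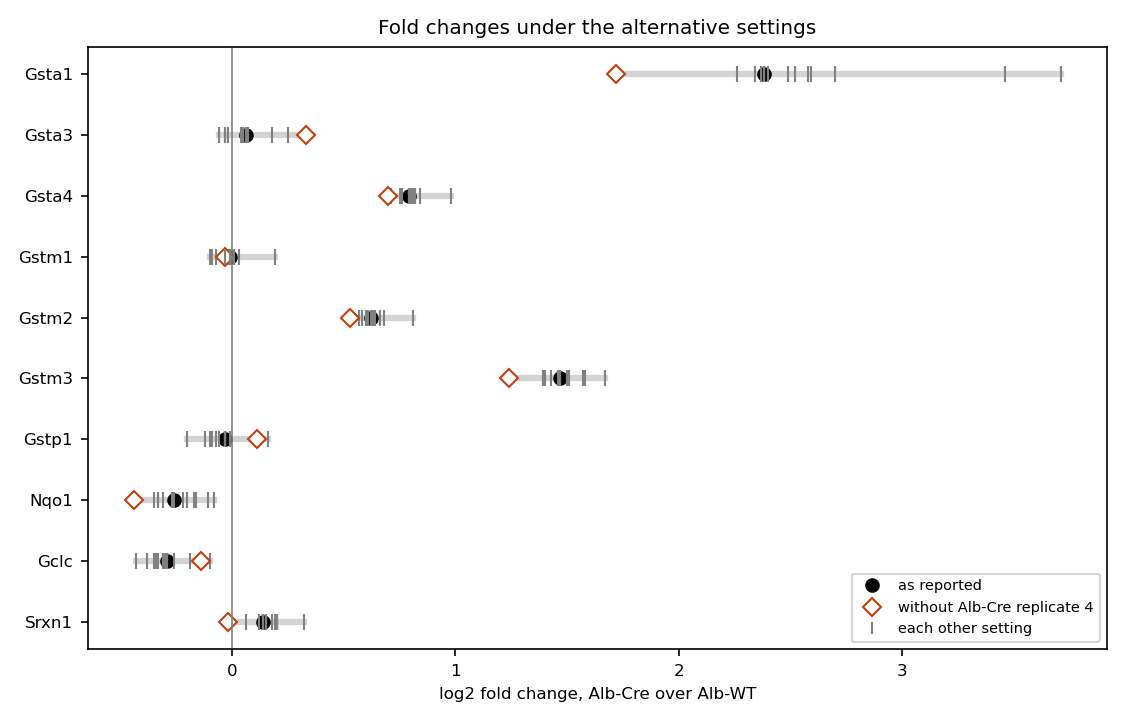
Log2 fold change of Alb-Cre over Alb-WT for the 10 genes (rows) under every setting tried. Black circles are the values as reported, open diamonds the values without Alb-Cre replicate 4, ticks the remaining settings and grey bars their range. Gsta1, Gsta4, Gstm2 and Gstm3 stay above 0 and Nqo1 and Gclc below 0 throughout, while Gsta3, Gstm1, Gstp1 and Srxn1 cross 0.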

How the data were processed

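The deposited table gave FPKM as the authors computed it, with 13703 rows for 13696 symbols. The aligner HISAT2 2.0.5 is named, per the submitters' processing notes, which also list the builds mm39 and hg38 with no role. No counting tool, annotation or strand setting is given in the sources used here. Per the labels' protocols, Trizol RNA went into standard Illumina libraries. The descriptions also say 10x Genomics, although the table has a single column for each library. The table holds no 0, so genes silent in a library may be missing.

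FPKM steps gave whole fragment numbers for 13702 rows (tolerance 1e-07). Gene lengths equalled those of GENCODE M21 within 1 bp for 12739 of 13453 rows. The test was limma 3.58.1 (R 4.3.3) on log2(FPKM + 1), with an intensity trend and genotype as the only term (mean of 0.5 FPKM or more, Benjamini-Hochberg adjustment over all 11077 rows, threshold 0.05), and the fit was tested on simulated data. Python 3.11.15 did the rest. Without a library, the filter was reapplied to those left.

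Members and lists were chosen with earlier results of these data known. The rule named the members, up to 4 called genes per list and direction, Nfe2l2, Keap1 and Bach1, and the 5 genes most correlated with Gsta1 and with Nqo1. Other genes are said to be named after their values were seen. Alternatives are given in the closing section. Upstream sequences come from RefSeq, GRCm38.p6, not the build in the notes.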

Additional observations from a re-analysis of the deposited data

Results flagged for a closer look

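The libraries of each group were compared for the members and the list genes named, leaving out Mgst2 and Hpgds, 86 groups of 4 in all. A library was marked where its gap to the nearest other took up more of the group's range than Dixon's critical value for 4 samples. Chance marks about 1 in 20 independent groups. These genes share the same libraries and some were named for their values, so that rate is no yardstick here. In all, 13 groups were marked, 9 of them for Alb-Cre replicate 4. The ratio of gap to range for that library was 0.934 for Gsta1, 0.847 for Gstm3, 0.952 for Srxn1, 0.94 for Gm3776 and 0.973 for Hmox1, in which it was the highest Alb-Cre library. It was 0.879 for Gsta3, 0.89 for Gclc, 0.84 for Gstm4 and 0.916 for Idh1, in which it was the lowest. Elsewhere, Cyp3a13 was high in Alb-Cre replicate 2 (0.882) and Gstp3 high in Alb-WT replicate 4 (0.958), while Srxn1 was low in Alb-WT replicate 3 (0.845) and Cyp2a5 low in Alb-WT replicate 1 (0.95).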

How the results depend on the processing

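Over all genes, the counts of higher and lower calls, 939 and 2582 as reported, were 546 to 1680 and 1192 to 5088 on leaving out single libraries. Calls that were higher numbered 623 after rescaling to a common FPKM sum, 1872 with median-of-ratios scaling, 1554 with quantile normalization and 613 with the replicate block. Calls that were lower numbered 981 at a mean of at least 5 FPKM, 1516 with median-of-ratios scaling, 1469 with quantile normalization, 1504 with the gene length trend removed and 1631 with the replicate block. The cause of these shifts was not tested, except that the stricter filter tests 4754 genes. Leaving out single libraries gave 9 to 14 calls among other transferases, 4 to 15 among other NRF2 targets, 2 to 14 in glutathione metabolism, 1 to 6 in NRF2 control and 3 to 9 among xenobiotic genes. In NRF2 control the replicate block gave 1 call. Deviations of same-numbered libraries correlated at -0.06, -0.05, -0.10 and 0.01, so no shared deviation was seen. These values cannot show whether the libraries were paired by number. The block also ended the calls for Bach1 (limma adjusted p = 0.0541), Esd (0.0545), Cth (0.0525), Cyp2a5 (0.0945), Aox1 (0.093) and Nr1i2 (0.123). For the 29 called list genes named in the text, 490 repeats under the alternatives kept the call 404 times and lost it 86 times, with no reversal. Without the expression filter, 1 other transferase was called lower. For Gsta1 the log2 fold change was 3.46 with a pseudocount of 0.1 and 3.71 with limma-voom on recovered fragments, since its Alb-WT values are below 1 FPKM. Genes of few fragments, Gsta1 and Nqo1 among the members, are the least precise.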
